A study of Mus musculus with 9 samples.

Results

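The genes described here are the conjugating transferases of mouse liver: the UDP-glucuronosyltransferases (UGT), the glutathione transferases (GST and MGST) and the sulfotransferases (SULT), with the pair of synthases that make the sulfate donor, Papss1 and Papss2. They were chosen by symbol. Of 28956 genes in the count table, 62 carried a matching symbol, and the 50 with at least 10 counts in at least 3 libraries were kept, all of which were tested. Sult2a7 and Ugt1a10 met this rule only with the APAP_MSC libraries, and the other 48 would have met it without them. The 12 symbols left out peaked at 14 counts (Gsto2), 11 counts (Sult6b1) and 8 counts or fewer in any library, and they include the hydroxysteroid sulfotransferases Sult2a1 and Sult2a2.

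The libraries are poly(A) RNA sequencing of whole liver from C57BL6J mice aged 8 weeks, in 3 groups of 3. All mice received acetaminophen (APAP) at 300 mg/kg by intraperitoneal injection. In the group APAP_MSC, 500000 MSC cells were given intravenously 90 min later, in the group APAP_HDF the same number of HDF cells, and the group APAP had no cells. The time point is 24 h. What MSC and HDF stand for (commonly mesenchymal stromal cells and human dermal fibroblasts) and the species of the injected cells are not in the labels. Nor is it stated that every library came from its own mouse, so p-values here reflect only library-to-library spread. No liver without APAP is among the samples. The 3 libraries of a group are numbered in the order of their columns.

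Conjugation makes drugs, hormones, bile acids and reactive metabolites water-soluble for export. UGT enzymes, in the endoplasmic reticulum, transfer glucuronic acid from UDP-glucuronic acid. Sulfotransferases use 3'-phosphoadenosine-5'-phosphosulfate (PAPS), and glutathione transferases add glutathione to electrophiles. At low dose APAP leaves the liver mainly as glucuronide and sulfate, while its oxidised product, N-acetyl-p-benzoquinone imine, is trapped by glutathione.

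The libraries held 53267231 to 63175573 counts, of which the 50 transferases took 0.571% to 0.924%. The label names hepatocytes, and the 6 hepatocyte markers summed to 92900 to 102200 CPM (counts per 1000000, on TMM-scaled library sizes) in APAP_MSC, 85690 to 112300 CPM in APAP_HDF and 85030 to 114000 CPM in APAP, with 0 of 6 past the test for APAP_MSC over APAP and 1 of 6 higher for APAP_MSC over APAP_HDF. Markers of other liver cells were also present. The 6 markers of infiltrating monocytes or macrophages summed to 42.7 to 60.1 CPM in APAP_MSC, 71.3 to 101 CPM in APAP_HDF and 93.5 to 128 CPM in APAP, and 4 of 6 were lower in APAP_MSC than in APAP and 2 of 6 than in APAP_HDF. The 5 sinusoidal endothelial markers summed to 66.0 to 72.8 CPM in APAP_MSC, 90.6 to 129 CPM in APAP_HDF and 92.0 to 144 CPM in APAP, with 2 of 5 lower in APAP_MSC than in APAP and 2 of 5 than in APAP_HDF. The 5 neutrophil markers summed to 1.16 to 1.61 CPM in APAP_MSC, 1.34 to 4.96 CPM in APAP_HDF and 4.93 to 6.65 CPM in APAP, and all 3 that could be tested were lower in APAP_MSC than in APAP. The 5 Kupffer cell markers summed to 91.6 to 160 CPM in APAP_MSC, 61.6 to 137 CPM in APAP_HDF and 109 to 270.2 CPM in APAP, with 0 of 5 past the test. The 5 cholangiocyte markers summed to 116 to 131 CPM in APAP_MSC, 99.4 to 104 CPM in APAP_HDF and 94.8 to 148 CPM in APAP, and 3 of 5 were higher in APAP_MSC than in APAP_HDF. The 5 stellate cell markers summed to 137 to 159 CPM in APAP_MSC, 130 to 177 CPM in APAP_HDF and 164 to 222 CPM in APAP, with 1 of 5 lower in APAP_MSC than in APAP. The 3 erythroid markers summed to 69.2 to 107 CPM in APAP_MSC, 35.8 to 48.9 CPM in APAP_HDF and 32.4 to 80.7 CPM in APAP, and 1 of the 2 tested was higher in APAP_MSC than in each other group. No marker in these lists was at 0 in all libraries. Their part in the transferase results was not tested. In whole liver, fewer cells of a type and less RNA per cell cannot be told apart.

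In livers given MSC cells the 50 transferases together made up 9402 ± 192 CPM, against 6257 ± 550.2 CPM in livers given APAP without cells (SD, n = 3 each), and no library overlapped. Of the 50 members, 14 were higher in APAP_MSC than in APAP at an adjusted p under 0.05 in edgeR's quasi-likelihood test, which is 28%, while 2.83% of all 17582 genes tested were called higher and 6.38% were called in either direction. These were 5 mu class glutathione transferases (Gstm2, Gstm3, Gstm4, Gstm6, Gstm7), Gstp3, Gstk1 and Mgst1, the glucuronosyltransferases Ugt2b1, Ugt2b5 and Ugt2b34, the sulfotransferases Sult2a7 and Sult2a8, and Papss2. None was lower, where 3.54% of all genes were called lower: edgeR gave 3 members with a lower value at an unadjusted p under 0.05 (12.7% of all genes), and DESeq2 and limma-voom each called 0. At the same unadjusted p, 28 members were higher, against 10.2% of all genes. The median log2 fold change of the members was 0.43, against -0.008 over all genes, and 41 of 50 had a value above 0, which 48.9% of all genes had. In 27 members the 3 APAP_MSC libraries were all above the 3 APAP libraries, which held for 13.7% of all genes, and in 1 member all were below, which held for 14.7%. The counts of 28 and 27 both include Sult2a7 and Ugt1a10, which were kept only through APAP_MSC. The count of 14 changed with the fit, and so did the share of all genes called in either direction (in brackets). It was 8 without APAP_MSC library 1 (1.43%), 3 without APAP_MSC library 2 (0.536%) and 8 without APAP_MSC library 3 (2.1%). Without APAP library 1 it was 9 (2.75%), and without APAP_HDF library 1 it was 20 (9.73%). DESeq2 called 22, and 1938 genes in all, where edgeR called 1121. Its share, 6.69%, is of all 28956 genes with no filter on low counts, so it is not comparable with the edgeR shares. Among the 48 members that met the count rule without APAP_MSC, 13 were called. Gstm3, Gstm4 and Ugt2b1 passed in each of the 9 fits that left out 1 library.

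**Figure D1:**
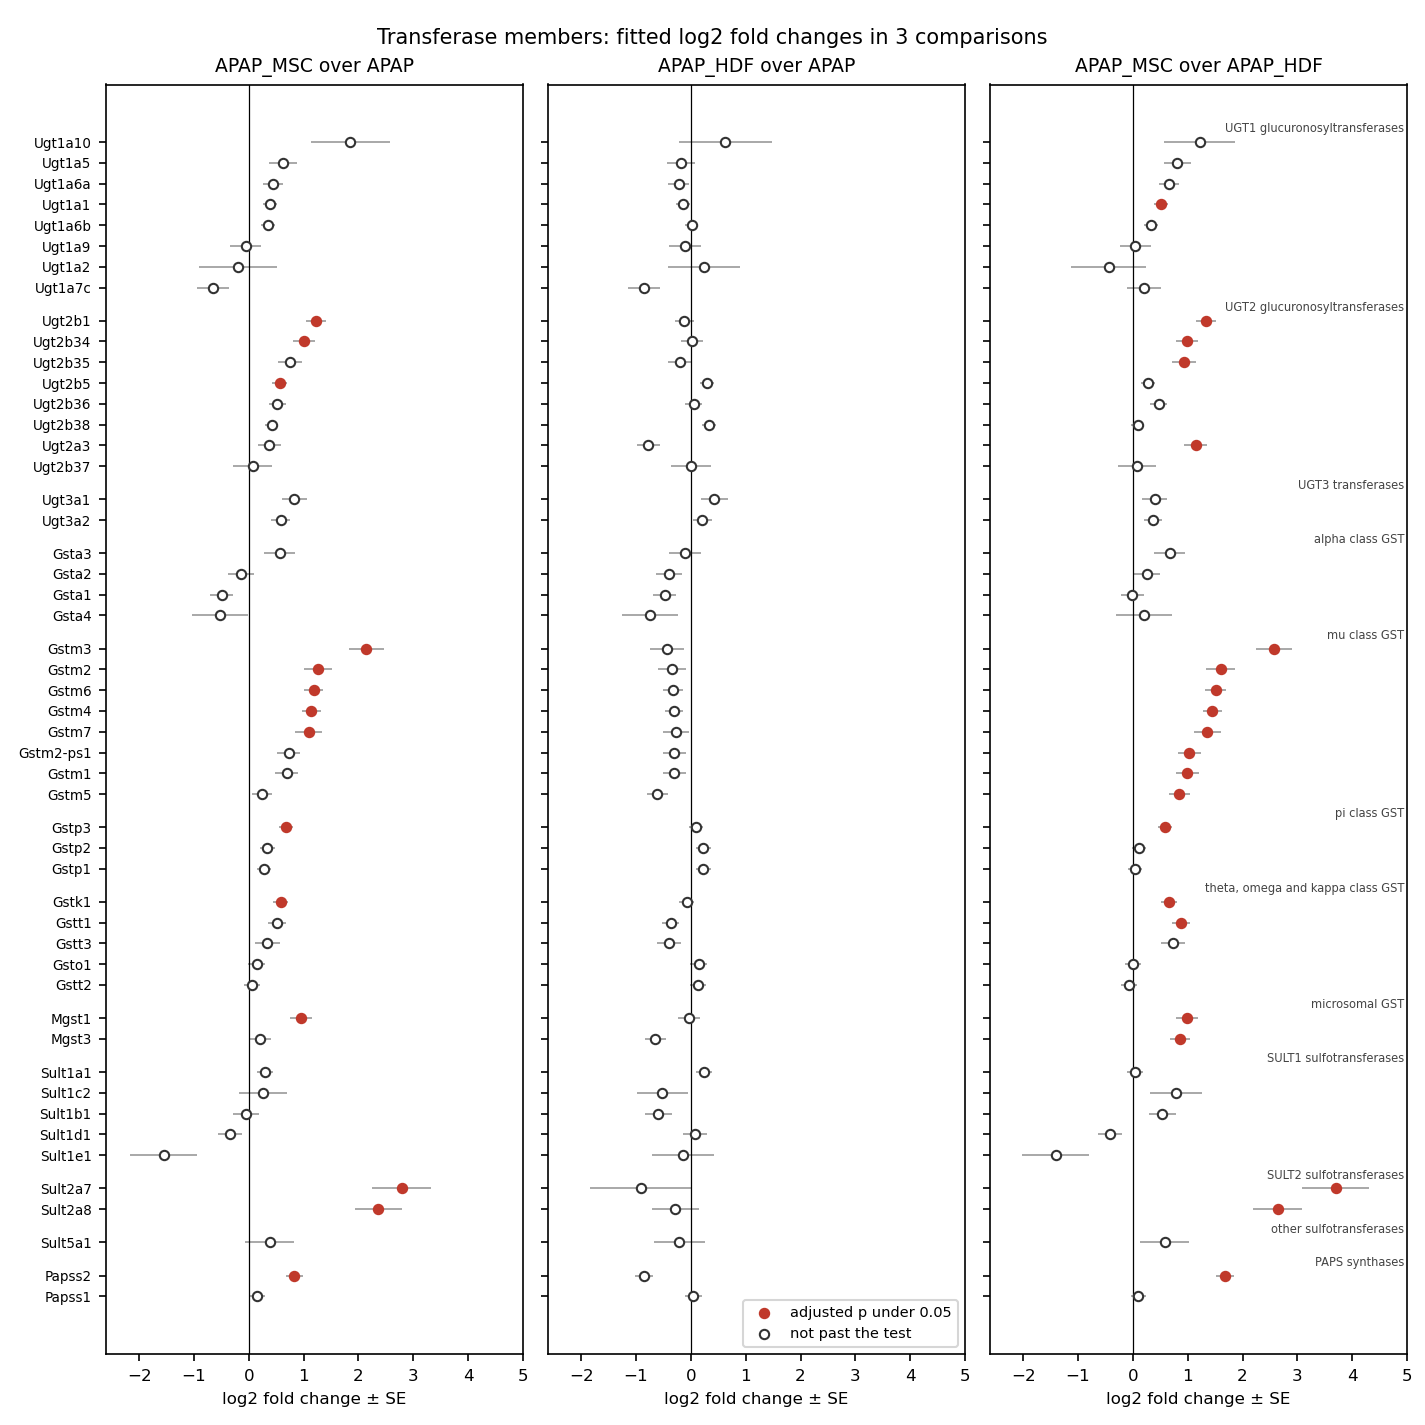
Fitted log2 fold changes (x axis, with SE) of the 50 transferases, grouped by class down the page, for APAP_MSC over APAP, APAP_HDF over APAP and APAP_MSC over APAP_HDF; filled red points passed an adjusted p under 0.05. The 14 red points at left and the 21 at right all lie above 0, and the middle panel has none. The panels share groups of libraries, so they are not independent.

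The mu class held the most calls among the glutathione transferases. These cytosolic enzymes conjugate aryl and epoxide electrophiles. Among the members on chromosome 3, 7 of the 8 genes measured form a row in the order Gstm5, Gstm7, Gstm6, Gstm3, Gstm2, Gstm1 and Gstm4. The eighth, Gstm2-ps1, is annotated as a pseudogene on chromosome 5. For APAP_MSC over APAP, 5 of 8 were higher with a class median of 1.12 on the log2 scale, and for APAP_MSC over APAP_HDF all 8 were higher, with a median of 1.41. Gstm5 and Gstm7, at an end of this row, and Gstm3, in the middle of it, have the RefSeq promoters below (assembly GRCm38.p6; 250 bases before the annotated start and 50 after it). They are shown because these neighbours differed in size of change, from the smallest in the class to the largest. In addition, the antioxidant response element in the spelling TGACNNNGC, in capitals, is found in the windows of Gstm5 and of the alternative start of Gstm7. That spelling is not in the window of Gstm3, and other spellings were not searched.
Gstm5 (chr3:107895604-107895903, plus strand): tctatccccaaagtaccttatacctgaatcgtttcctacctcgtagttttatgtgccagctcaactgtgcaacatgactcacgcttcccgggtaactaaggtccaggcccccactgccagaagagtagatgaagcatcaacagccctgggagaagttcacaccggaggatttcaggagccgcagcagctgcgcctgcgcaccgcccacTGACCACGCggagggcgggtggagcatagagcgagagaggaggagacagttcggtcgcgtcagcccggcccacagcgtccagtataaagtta
Gstm7 (chr3:107931565-107931864, minus strand): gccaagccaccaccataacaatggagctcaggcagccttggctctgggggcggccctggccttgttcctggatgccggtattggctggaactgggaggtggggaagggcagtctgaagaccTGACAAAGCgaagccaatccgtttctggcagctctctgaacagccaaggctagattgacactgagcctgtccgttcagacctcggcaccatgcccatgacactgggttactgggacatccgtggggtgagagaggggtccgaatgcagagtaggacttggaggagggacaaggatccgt
Gstm3 (chr3:107969125-107969424, minus strand): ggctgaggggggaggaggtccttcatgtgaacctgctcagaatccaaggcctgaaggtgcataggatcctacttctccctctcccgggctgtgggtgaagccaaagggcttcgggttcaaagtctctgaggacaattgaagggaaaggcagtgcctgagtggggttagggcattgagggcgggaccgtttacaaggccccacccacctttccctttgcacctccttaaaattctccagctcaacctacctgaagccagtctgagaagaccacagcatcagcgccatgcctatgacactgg

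Gstm3 stood at 195, 120.5 and 95.9 CPM in the APAP_MSC libraries, 18.8, 29.6 and 20.8 CPM in the APAP_HDF libraries and 29.6, 41.9 and 21.8 CPM in the APAP libraries. Every APAP_MSC library lay above all of the other 6, and APAP_MSC library 1 was the highest. The log2 fold change was 2.14 ± 0.32 over APAP (adjusted p = 0.0128) and 2.57 ± 0.33 over APAP_HDF (adjusted p = 0.00393), where ± is the SE of the fit, as for all fold changes here. Gstm4 was at 90.4, 82.1 and 72.8 CPM in APAP_MSC, 29.7, 31.7 and 28.1 CPM in APAP_HDF and 34.8, 48.1 and 28.4 CPM in APAP. Its groups did not overlap either, and its log2 fold change was 1.14 ± 0.17 over APAP (adjusted p = 0.00616) and 1.45 ± 0.17 over APAP_HDF (adjusted p = 0.00128).

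Gstm6 was measured at 55.3, 62.3 and 45.1 CPM in APAP_MSC, 14.2, 23.97 and 18.96 CPM in APAP_HDF and 22.6, 27.5 and 21.8 CPM in APAP, again with no overlap between APAP_MSC and the other 6 libraries. It was 1.18 ± 0.18 higher on the log2 scale over APAP (adjusted p = 0.00929) and 1.51 ± 0.19 over APAP_HDF (adjusted p = 0.00173). The call over APAP was lost without APAP_MSC library 2 (adjusted p = 0.0556). Gstm7 gave 46.4, 66.02 and 44.9 CPM in APAP_MSC, 14.6, 25.4 and 21.4 CPM in APAP_HDF and 28.5, 26.9 and 18.4 CPM in APAP, and Gstm2 gave 53.96, 46.5 and 29.5 CPM in APAP_MSC, 12.2, 15.4 and 15.2 CPM in APAP_HDF and 17.8, 23.9 and 12.5 CPM in APAP. Both were higher in APAP_MSC than in APAP, by 1.09 ± 0.24 for Gstm7 (adjusted p = 0.0276) and 1.26 ± 0.26 for Gstm2 (adjusted p = 0.0245). The call over APAP for Gstm7 was lost without each of the 6 APAP_MSC and APAP libraries in turn, and that for Gstm2 without APAP_MSC library 1, APAP_MSC library 2 or APAP library 1. Both were also lost with no filter on low counts (adjusted p = 0.0521 each). Both calls over APAP_HDF held in all 9 fits that left out a library.

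Gstm1, the abundant mu class enzyme of liver, had 1753, 1491 and 1763 CPM in APAP_MSC, 776, 1062 and 688 CPM in APAP_HDF and 1314, 1035 and 765 CPM in APAP. The 3 APAP_MSC libraries again lay above the other 6. The log2 fold change of 0.69 ± 0.21 over APAP did not pass (adjusted p = 0.0714), that of 0.99 ± 0.21 over APAP_HDF did (adjusted p = 0.016), and DESeq2 called both. Without APAP library 1 the value over APAP passed as well (adjusted p = 0.0481), and the call over APAP_HDF was lost without APAP_MSC library 1, APAP_MSC library 2 or APAP_HDF library 1. Gstm2-ps1 had values of 0.73 ± 0.21 over APAP (adjusted p = 0.0634) and 1.03 ± 0.21 over APAP_HDF (adjusted p = 0.0159), its calls changed with the same 4 libraries left out, and DESeq2 called both. Its transcript shares 46.9% of its 50-base windows with other genes, mainly Gstm1, so the separate counts of this pair are uncertain. Gstm5, at 6.15, 8.65 and 7.40 CPM in APAP_MSC, 4.37, 3.92 and 4.04 CPM in APAP_HDF and 6.87, 7.19 and 4.84 CPM in APAP, had the fewest counts of the class. It was higher in APAP_MSC than in APAP_HDF (0.85 ± 0.19, adjusted p = 0.0208; lost without APAP_MSC library 2 or 3 or APAP_HDF library 2 or 3) but overlapped between APAP_MSC and APAP (0.24 ± 0.19, adjusted p = 0.5). Without APAP_MSC library 1 the class kept 3 of its 5 calls over APAP, and without APAP_MSC library 2 it had 2. Over APAP_HDF it had 5 without APAP_MSC library 2.

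**Figure D2:**
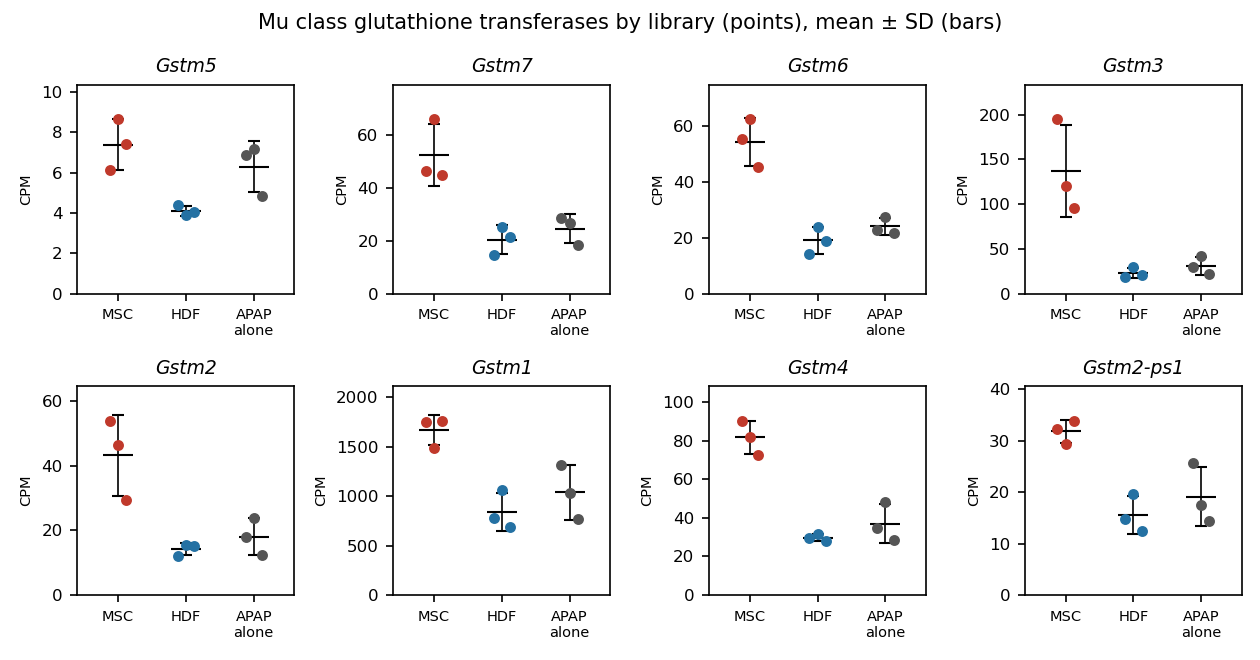
CPM of the 8 mu class genes (y axis from 0, own scale per panel) in the 3 libraries of APAP_MSC (red), APAP_HDF (blue) and APAP (grey, labelled APAP alone), with mean and SD. In all panels but that of Gstm5 the red points lie above all others; Gstm3 reaches 195 CPM in APAP_MSC and 41.9 CPM in APAP.

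Microsomal glutathione transferase 1 (Mgst1), a membrane enzyme of endoplasmic reticulum and mitochondria that also reduces lipid hydroperoxides, had the most counts of the members summed over the 9 libraries, though Gstp1 averaged more CPM in APAP_HDF, and Gstp1 and Gstm1 did in APAP. It stood at 1875, 1976 and 1897 CPM in APAP_MSC, 685, 986 and 1241 CPM in APAP_HDF and 850.0, 929.9 and 1191 CPM in APAP. The APAP_MSC libraries lay close together and above the other 6. The log2 fold change was 0.95 ± 0.20 over APAP (adjusted p = 0.0211) and 0.98 ± 0.20 over APAP_HDF (adjusted p = 0.0141). The call over APAP was lost without any of the 3 APAP_MSC libraries, APAP library 1 or APAP library 2, with adjusted p up to 0.0985, and that over APAP_HDF without APAP_MSC library 2 (adjusted p = 0.0651). Mgst3, which has peroxidase activity, differed otherwise: 22.96, 26.6 and 28.02 CPM in APAP_MSC, 14.1, 16.9 and 11.7 CPM in APAP_HDF and 28.4, 22.2 and 16.4 CPM in APAP. It passed over APAP_HDF (0.86 ± 0.19, adjusted p = 0.0224) and not over APAP (0.21 ± 0.19, adjusted p = 0.567), where the groups overlapped. The call of Mgst3 was lost without APAP_MSC library 2, APAP_MSC library 3, APAP_HDF library 1 or APAP_HDF library 3. The upstream start of Mgst1 has a match to the antioxidant response element on the opposite strand (capitals), 56 bases before the start, and is printed because Mgst1 is the most read member with such a match.
Mgst1 (chr6:138140277-138140576, plus strand): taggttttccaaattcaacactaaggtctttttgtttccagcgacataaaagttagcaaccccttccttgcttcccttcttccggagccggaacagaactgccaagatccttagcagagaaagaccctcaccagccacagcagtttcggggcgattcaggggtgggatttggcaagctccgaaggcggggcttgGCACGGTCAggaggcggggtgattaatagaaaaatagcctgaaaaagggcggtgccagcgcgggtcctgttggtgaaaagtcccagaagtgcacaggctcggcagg

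The alpha class held no call. These enzymes reduce lipid hydroperoxides and conjugate aldehydes and epoxides, and Gsta1 and Gsta2 are known as inducible members. None of the 4 passed in any comparison with all libraries. In edgeR 1 of 4 had an unadjusted p under 0.05 in each comparison, Gsta1 with lower values in APAP_MSC and in APAP_HDF than in APAP, and Gsta3 with a higher value in APAP_MSC than in APAP_HDF. DESeq2 and limma-voom called 0. The class median for APAP_MSC over APAP was -0.31. Gsta1 had 174, 187 and 231 CPM in APAP_MSC, 214, 206 and 176 CPM in APAP_HDF and 372, 273 and 186 CPM in APAP, so that APAP library 1 was the highest and the groups overlapped (-0.49 ± 0.21 over APAP, adjusted p = 0.202). Without APAP library 3, Gsta1 was called lower in APAP_MSC than in APAP (log2 fold change -0.71, adjusted p = 0.0399). Gsta2 gave 27.2, 29.5 and 35.01 CPM in APAP_MSC, 24.4, 29.1 and 23.2 CPM in APAP_HDF and 46.7, 33.6 and 20.8 CPM in APAP, with a log2 fold change over APAP of -0.14 ± 0.24 (adjusted p = 0.794). Gsta3, the constitutive alpha enzyme of mouse liver, ranged from 728 to 989 CPM in APAP_MSC, 380 to 720.2 CPM in APAP_HDF and 405 to 854 CPM in APAP (0.56 ± 0.29 over APAP, adjusted p = 0.287). Gsta4, which conjugates the lipid peroxidation aldehyde 4-hydroxynonenal, spread from 22.2 to 106 CPM within APAP. Read sharing limits Gsta1 most: 90.5% of its 50-base transcript windows occur in other genes.

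In the pi class, Gstp1 is the most abundant member of all per length of transcript and is known to conjugate the quinone imine of APAP. It had 1581, 1228 and 1212 CPM in APAP_MSC, 1185, 1427 and 1317 CPM in APAP_HDF and 1111, 1144 and 1089 CPM in APAP. All 3 libraries of APAP_MSC and all 3 of APAP_HDF were above those of APAP, but the gaps were small: 0.27 ± 0.13 for APAP_MSC over APAP (adjusted p = 0.265) and 0.23 ± 0.13 for APAP_HDF over APAP (adjusted p = 0.635). Its near copy Gstp2 gave 0.34 ± 0.13 (adjusted p = 0.134) and 0.23 ± 0.13 (adjusted p = 0.628) in the same comparisons, and 33.7% of the Gstp1 windows and 54.3% of the Gstp2 windows are shared. Only Gstp3, of the 3, passed: 28.9, 37.5 and 31.9 CPM in APAP_MSC, 24.1, 18.5 and 22.9 CPM in APAP_HDF and 21.9, 21.1 and 18.6 CPM in APAP. Its APAP_MSC libraries lay above the other 6, by 0.68 ± 0.13 over APAP (adjusted p = 0.0182) and 0.58 ± 0.13 over APAP_HDF (adjusted p = 0.0219). Both calls were lost without APAP_MSC library 2, and that over APAP_HDF also without APAP_HDF library 2.

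Among the theta, omega and kappa enzymes, Gstk1, found in mitochondria and peroxisomes, passed over both groups. It was at 42.4, 46.4 and 41.8 CPM in APAP_MSC, 21.5, 32.6 and 28.7 CPM in APAP_HDF and 30.5, 27.1 and 29.8 CPM in APAP. The difference over APAP was 0.58 ± 0.14 (adjusted p = 0.0332) and was lost without any 1 of the APAP_MSC or APAP libraries, while that over APAP_HDF (0.66 ± 0.14, adjusted p = 0.016) was lost without APAP_MSC library 2. Gstt1, a theta class enzyme active on halogenated alkanes, had 96.96, 132 and 122 CPM in APAP_MSC, 52.7, 78.2 and 59.7 CPM in APAP_HDF and 83.8, 88.7 and 73.3 CPM in APAP. It was higher in APAP_MSC than in APAP_HDF (0.88 ± 0.16, adjusted p = 0.00825) in all 9 fits that left out a library, and missed the test over APAP (0.51 ± 0.16, adjusted p = 0.0748), which it passed by DESeq2 (adjusted p = 0.036), with the 6 libraries alone (adjusted p = 0.0434) and without APAP_HDF library 1 (adjusted p = 0.042). Gstt2, Gstt3 and Gsto1 did not pass in any comparison in edgeR, though Gstt3 was called higher in APAP_MSC than in APAP_HDF by DESeq2 and by edgeR without APAP_MSC library 1 (adjusted p = 0.00927).

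The UGT2 genes held the most calls among the glucuronosyltransferases. This family glucuronidates steroids, bile acids and many drugs. Of 8 genes, 3 were higher in APAP_MSC than in APAP and 4 were higher in APAP_MSC than in APAP_HDF, with medians of 0.54 and 0.70. Ugt2b1 stood at 103, 92.5 and 103 CPM in APAP_MSC, 27.97, 45.4 and 44.7 CPM in APAP_HDF and 50.2, 37.7 and 40.6 CPM in APAP. The lowest APAP_MSC library was well above the highest of the other 6. The difference was 1.22 ± 0.18 over APAP (adjusted p = 0.00587) and 1.34 ± 0.18 over APAP_HDF (adjusted p = 0.0024), and Ugt2b1 shares no 50-base window with another gene. Ugt2b34 was at 333, 371 and 412 CPM in APAP_MSC, 127, 229 and 212 CPM in APAP_HDF and 166, 217 and 176 CPM in APAP. It was higher over APAP (1.0 ± 0.20, adjusted p = 0.0198) and over APAP_HDF (0.98 ± 0.20, adjusted p = 0.0153). The call over APAP was lost without APAP_MSC library 2, APAP_MSC library 3 or APAP library 1, and that over APAP_HDF without APAP_MSC library 2.

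Ugt2b5, the UGT2 gene with the most counts, gave 441, 412 and 453 CPM in APAP_MSC, 323, 369 and 390.3 CPM in APAP_HDF and 308, 243 and 333 CPM in APAP. It was the only member called over APAP (0.56 ± 0.13, adjusted p = 0.0309) but not over APAP_HDF (0.27 ± 0.13, adjusted p = 0.22), the call was lost without any of the 3 APAP_MSC libraries, APAP library 1 or APAP library 2, and 41.7% of its windows are shared, mainly with Ugt2b38. Ugt2a3 showed the reverse: 90.8, 89.1 and 101 CPM in APAP_MSC, 31.2, 47.6 and 47.5 CPM in APAP_HDF and 93.9, 71.1 and 51.8 CPM in APAP. Here the APAP_HDF libraries were below all of the other 6, and the gene passed for APAP_MSC over APAP_HDF (1.15 ± 0.21, adjusted p = 0.0117) and not for APAP_MSC over APAP (0.37 ± 0.21, adjusted p = 0.332). Ugt2b35 also passed over APAP_HDF (0.94 ± 0.22, adjusted p = 0.027), a call lost without any of the APAP_MSC libraries, APAP_HDF library 1 or APAP_HDF library 3, and with no filter on low counts (adjusted p = 0.0647). Over APAP it was called only without APAP library 2 (adjusted p = 0.0454) and by DESeq2. Ugt2b36, Ugt2b37 and Ugt2b38 passed in neither, although DESeq2 called Ugt2b36 in both comparisons and Ugt2b38 over APAP. In edgeR, Ugt2b36 was near the threshold: over APAP it was called with no filter on low counts (adjusted p = 0.0351), with the 6 libraries alone (adjusted p = 0.0392) and without APAP_HDF library 1 (adjusted p = 0.022), and over APAP_HDF with no filter (adjusted p = 0.0445) and without APAP library 1 (adjusted p = 0.0497). Ugt2b38 was called over APAP without APAP_HDF library 1 (adjusted p = 0.0446). Over APAP, the family kept 1 call without APAP_MSC library 2, without APAP_MSC library 3 or without APAP library 1, and it had 5 without APAP_HDF library 1. Over APAP_HDF it had 2 without APAP_MSC library 2.

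The UGT1 genes come from a single locus in which alternative exons encoding the substrate-binding part join a common set of exons, so 52.1% to 79.8% of their transcript windows are shared and their separate counts are uncertain. Ugt1a1 conjugates bilirubin, and Ugt1a6 and Ugt1a9 forms are known APAP glucuronosyltransferases. None of the 8 was called in APAP_MSC over APAP: edgeR gave 6 with an unadjusted p under 0.05 (5 higher, 1 lower), and DESeq2 and limma-voom called 0. Ugt1a10, among the 5 higher, was kept only through the APAP_MSC libraries, so its value is tied to that filter. Ugt1a1 had 24.6, 31.6 and 32.5 CPM in APAP_MSC, 20.04, 21.6 and 20.01 CPM in APAP_HDF and 19.8, 22.4 and 25.6 CPM in APAP. It passed over APAP_HDF (0.52 ± 0.13, adjusted p = 0.0319) with no overlap, and not over APAP (0.38 ± 0.13, adjusted p = 0.104). That call was lost without APAP_MSC library 2, APAP_MSC library 3 or any APAP_HDF library. Ugt1a6b had 31.9, 30.9 and 36.2 CPM in APAP_MSC, 21.8, 28.6 and 28.2 CPM in APAP_HDF and 26.6, 26.4 and 24.96 CPM in APAP, and its APAP_MSC libraries were above the other 6 by a margin that did not pass (0.35 ± 0.12 over APAP, adjusted p = 0.107; 0.0389 without APAP_HDF library 1). Ugt1a6a did not pass either (0.44 ± 0.19, adjusted p = 0.185). DESeq2 called Ugt1a6a and Ugt1a5 higher in APAP_MSC than in APAP_HDF, as did edgeR for Ugt1a6a with no filter on low counts (adjusted p = 0.0384), with the 6 libraries alone (adjusted p = 0.0414) and without APAP library 2 (adjusted p = 0.0478) or 3 (adjusted p = 0.0356) and for Ugt1a5 without APAP_HDF library 1 (adjusted p = 0.0147). Ugt1a9 overlapped in all groups at 18.8, 10.9 and 15.4 CPM in APAP_MSC, 15.02, 20.2 and 8.51 CPM in APAP_HDF and 17.9, 14.8 and 14.4 CPM in APAP. Ugt1a7c, at 1.41 CPM or less, was the only member with all APAP_MSC libraries below all APAP libraries (-0.66 ± 0.29, adjusted p = 0.196).

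The UGT3 enzymes, known in humans to use N-acetylglucosamine or glucose in place of glucuronic acid, were near the threshold. Ugt3a2 had 159.5, 134 and 132 CPM in APAP_MSC, 77.9, 121 and 130.3 CPM in APAP_HDF and 102, 89.3 and 92.6 CPM in APAP, and it did not overlap between APAP_MSC and APAP (0.58 ± 0.17, adjusted p = 0.0623). Ugt3a1 gave 0.83 ± 0.23 over APAP (adjusted p = 0.0614). Neither was called by edgeR with all 9 libraries or by limma-voom. Both had an unadjusted p under 0.05 and were called by DESeq2, and by edgeR with the 6 libraries alone (adjusted p = 0.0202 for Ugt3a1 and 0.0148 for Ugt3a2), without APAP_HDF library 1, and without APAP_HDF library 3.

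In sulfation, the called genes included a pair on chromosome 7, next to each other in the order of the members. Sult2a8, known as a bile acid sulfotransferase of mouse liver, stood at 87.7, 65.1 and 64.2 CPM in APAP_MSC, 4.96, 11.4 and 18.6 CPM in APAP_HDF and 15.01, 9.63 and 17.6 CPM in APAP. Its lowest APAP_MSC library was above 3 times the highest of the other 6. The log2 fold change was 2.36 ± 0.43 over APAP (adjusted p = 0.0215) and 2.64 ± 0.44 over APAP_HDF (adjusted p = 0.0113). The call over APAP was lost without any of the 3 APAP_MSC libraries, APAP library 1 or APAP library 2 (adjusted p up to 0.0795), and with no filter on low counts (adjusted p = 0.0589), while that over APAP_HDF held in all 9 fits that left out a library. Sult2a7 was scarce, with 36, 34 and 29 counts in APAP_MSC, 0, 3 and 5 counts in APAP_HDF and 2, 3 and 10 counts in APAP. Outside APAP_MSC 1 of 6 libraries reached 10 counts, so Sult2a7 was kept only through the group in which it is high, and its calls are tied to that filter. It passed over APAP (2.79 ± 0.54, adjusted p = 0.0146) and over APAP_HDF (3.70 ± 0.61, adjusted p = 0.00424), but the fold rests on these few counts: over APAP it was 6.94, and 12.6 without APAP library 3, while over APAP_HDF it was 13.0, 8.63 without APAP_HDF library 1 and 23.4 without APAP_HDF library 3. The call over APAP was lost without APAP_MSC library 2. The promoter of Sult2a8 is shown for this change. It holds none of the 3 motifs searched, so it is printed without capitals.
Sult2a8 (chr7:14446538-14446837, minus strand): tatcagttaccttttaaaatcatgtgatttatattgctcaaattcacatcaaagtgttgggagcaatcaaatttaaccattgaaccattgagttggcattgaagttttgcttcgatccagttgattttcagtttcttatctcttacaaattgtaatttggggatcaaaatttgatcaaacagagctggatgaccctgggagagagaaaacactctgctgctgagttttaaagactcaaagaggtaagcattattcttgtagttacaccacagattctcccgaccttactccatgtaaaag

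Papss2, the PAPS synthase that predominates in liver, was the member whose 3 groups were fully separated. It had 107, 126 and 98.8 CPM in APAP_MSC, 33.2, 39.7 and 30.3 CPM in APAP_HDF and 71.9, 65.4 and 48.6 CPM in APAP. All APAP_MSC libraries were above, and all APAP_HDF libraries below, every APAP library. Papss2 was higher in APAP_MSC than in APAP (0.83 ± 0.16, adjusted p = 0.0168), a call lost without APAP_MSC library 2 (adjusted p = 0.0896). For APAP_HDF over APAP the value was -0.85 ± 0.16 and did not pass (adjusted p = 0.44). It did pass in DESeq2 (adjusted p = 0.00403) and in edgeR without APAP library 3 (-1.01 ± 0.14, adjusted p = 0.0262). The difference between APAP_MSC and APAP_HDF was 1.68 ± 0.16 (adjusted p = 5.6e-04), the smallest adjusted p of any member in the 3 comparisons, and it held in every fit that left out a library. Papss1, the other synthase, overlapped in all groups, with 37.6, 39.9 and 30.8 CPM in APAP_MSC, 39.2, 29.8 and 32.00 CPM in APAP_HDF and 28.6, 38.01 and 31.3 CPM in APAP (0.15 ± 0.15 for APAP_MSC over APAP, adjusted p = 0.608).

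The SULT1 enzymes, which sulfate phenols, catecholamines, thyroid hormone and estrogen, were not called in any comparison by edgeR, DESeq2 or limma-voom with all libraries. An unadjusted p under 0.05 was found for 1 of 5 in APAP_MSC over APAP (Sult1e1), 1 of 5 in APAP_HDF over APAP (Sult1b1) and 2 of 5 in APAP_MSC over APAP_HDF (Sult1b1 and Sult1e1). Sult1b1 was called higher in APAP_MSC than in APAP_HDF with the 6 libraries alone (adjusted p = 0.0203) and without APAP library 3 (0.56 ± 0.14, adjusted p = 0.0296). Sult1a1, a phenol sulfotransferase known to act on APAP, stood at 263, 276 and 247 CPM in APAP_MSC, 206, 297 and 261 CPM in APAP_HDF and 183, 249.7 and 212 CPM in APAP. The groups overlapped by the lowest APAP_MSC and the highest APAP library (0.29 ± 0.15, adjusted p = 0.285). Sult1e1, the estrogen sulfotransferase, had the largest negative value of the members, with 1.38, 1.26 and 2.73 CPM in APAP_MSC, 8.54, 2.34 and 3.48 CPM in APAP_HDF and 7.83, 2.13 and 5.86 CPM in APAP. Its libraries spread widely within APAP_HDF and APAP, and the value of -1.55 ± 0.61 did not pass (adjusted p = 0.171). Sult1b1, Sult1c2, Sult1d1 and Sult5a1 had log2 fold changes between -0.34 and 0.38 over APAP, none past the test.

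**Figure D3:**
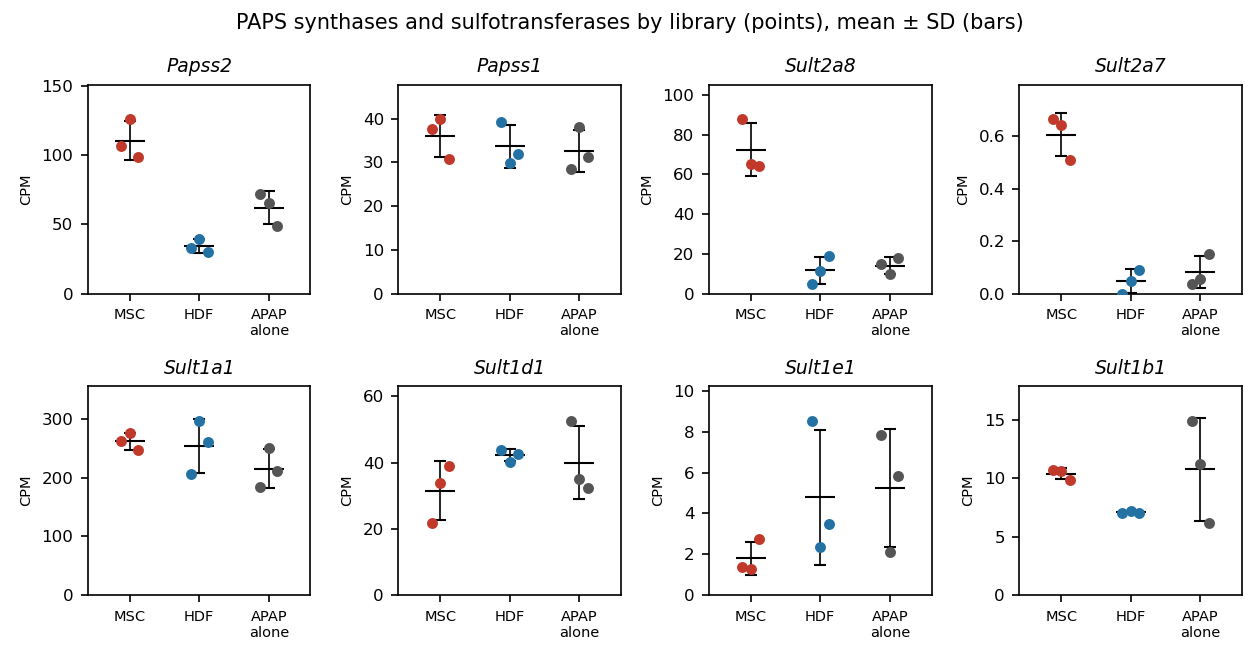
CPM of the PAPS synthases and 6 sulfotransferases (y axis from 0, own scale per panel) in the libraries of APAP_MSC (red), APAP_HDF (blue) and APAP (grey, labelled APAP alone), with mean and SD. Papss2 lies above the APAP points in all 3 APAP_MSC libraries and below them in all 3 APAP_HDF libraries, while Papss1 and Sult1a1 overlap.

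No transferase was called between APAP_HDF and APAP. The share called was 0% for the members and 0% for all 17582 genes tested. At an unadjusted p under 0.05 edgeR had 10 members, 2 higher (Ugt2b5 and Ugt2b38) and 8 lower (Papss2, Ugt2a3, Mgst3, Gstm5, Ugt1a7c, Sult1b1, Gstt1 and Gsta1), against 3.65% of all genes higher and 5.14% lower. By DESeq2 1 member was called (Papss2, with 69 genes called of all 28956, not filtered for low counts). By limma-voom 0 were called, and by edgeR without APAP library 3 again 1 (Papss2, with 0.178% of all genes called). The members' median was -0.16, against -0.005 over all genes, and 17 of 50 lay above 0, which 49% of all genes did. Without overlap, 3 members were higher in APAP_HDF (Ugt2b38, Gstp1, Gstp2; 5.66% of all genes) and 5 were lower (Papss2, Ugt2a3, Ugt1a7c, Gstm5, Gstt3; 6.08% of all genes). Ugt2a3 and Mgst3 followed Papss2 in size of p, at -0.78 ± 0.21 (adjusted p = 0.482) and -0.65 ± 0.19 (adjusted p = 0.502). All 8 mu class genes had negative values, from -0.61 to -0.27, none past the test.

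Between the groups that received cells, 21 of 50 members (42%) were higher in APAP_MSC than in APAP_HDF, where 4.9% of all genes were called higher and 8.89% in either direction. None was lower, where 3.99% of all genes were. At an unadjusted p under 0.05 edgeR had 1 lower (Sult1e1; 13% of all genes) and 29 higher (12.7% of all genes), and DESeq2 and limma-voom called 0 lower. The 21 comprised 13 of the 14 called over APAP, without Ugt2b5, and Ugt1a1, Ugt2a3, Ugt2b35, Gstm1, Gstm5, Gstm2-ps1, Gstt1 and Mgst3. Both comparisons use the same APAP_MSC libraries. The median of the members was 0.62, against -0.021 over all genes, and 44 of 50 lay above 0, which 47.7% of all genes did. Without overlap, 29 members were higher in APAP_MSC than in APAP_HDF (16.8% of all genes) and 1, Sult1d1, was lower (16.4%). Sult2a7, kept only through APAP_MSC, is in both counts of 29. Among the 48 members that met the count rule without APAP_MSC, 20 were called. Without APAP_MSC library 2 the count of 21 fell to 11, with 1.99% of all genes called in either direction.

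A sum over a subfamily does not depend on how reads were divided among its members. It would still miss reads given to genes outside it or dropped as ambiguous. Gsta1 shares windows most with Gm3776 and Gstm3 with Gm8834, which are in no sum. The mu class reached 2232, 1907 and 2092 CPM in APAP_MSC, 884, 1212 and 809 CPM in APAP_HDF and 1480.0, 1228 and 887 CPM in APAP. Gstm1 holds most of these counts. Without Gstm1 the mean was 408 ± 75.2 CPM in APAP_MSC, 126 ± 21.02 CPM in APAP_HDF and 160.3 ± 35.7 CPM in APAP (SD, n = 3 each). The Ugt2b genes summed to 1387, 1382 and 1542 CPM in APAP_MSC, 774, 1046 and 1022 CPM in APAP_HDF and 926, 841 and 868 CPM in APAP, and the microsomal enzymes to 1898, 2002 and 1925 CPM in APAP_MSC, 699, 1003 and 1252 CPM in APAP_HDF and 878, 952 and 1207 CPM in APAP. In each of these 3 subfamilies, and in Sult2a, Ugt1a, Ugt3a and Gstt, all APAP_MSC libraries were above the other 6. The UGT1 sum, in which reads of the shared exons count unless they were dropped as ambiguous, averaged 98.3 ± 4.24 CPM in APAP_MSC, 73.9 ± 8.44 CPM in APAP_HDF and 79.2 ± 1.74 CPM in APAP, a ratio of 1.24 for APAP_MSC over APAP. Alpha class sums overlapped, at 1155 ± 165 CPM in APAP_MSC, 815 ± 175 CPM in APAP_HDF and 969 ± 355 CPM in APAP, as did SULT1 sums at 307 ± 14.3 CPM in APAP_MSC, 309.5 ± 41.4 CPM in APAP_HDF and 272 ± 23.3 CPM in APAP. All 50 members together averaged 6121 ± 893 CPM in APAP_HDF.

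**Figure D4:**
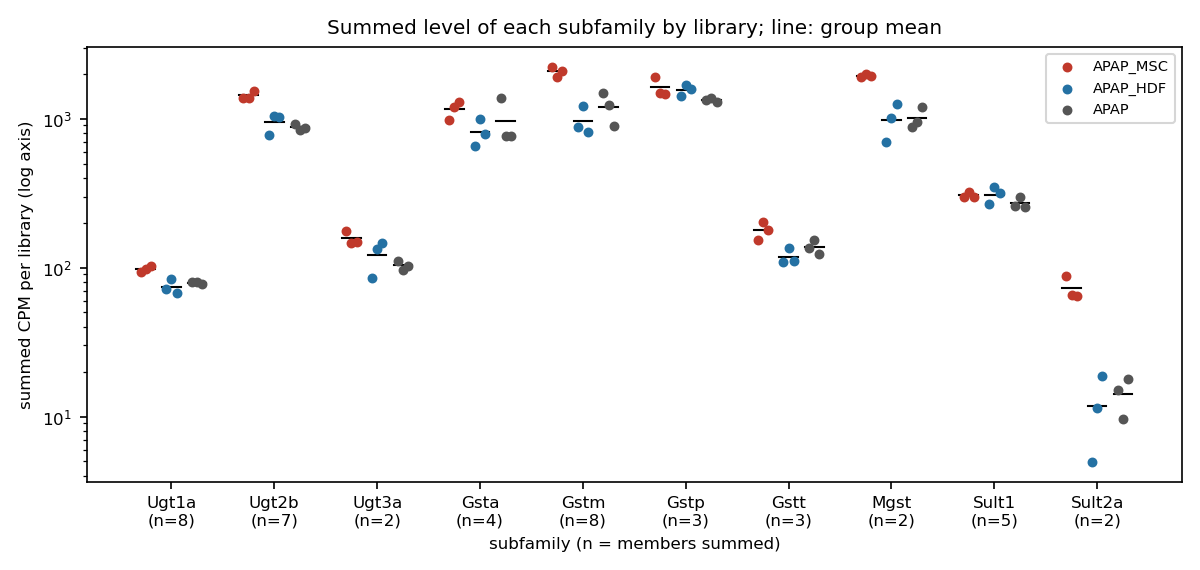
Summed CPM of each subfamily per library (y axis, log scale), for APAP_MSC (red), APAP_HDF (blue) and APAP (grey), with a line at the group mean. The Gstm, Ugt2b, Mgst and Sult2a sums of APAP_MSC stand above both other groups, with Sult2a at 73.0, 11.7 and 14.2 CPM on average in APAP_MSC, APAP_HDF and APAP, while Sult1 and Gsta sums overlap.

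Per kilobase of transcript, the order of levels at the top was the same in APAP_MSC and APAP_HDF: Gstp1, Gstm1, Mgst1, Gsta3 and Gstp2. Gstp1 had 1632 CPM per kilobase in APAP_MSC, 1596 CPM per kilobase in APAP_HDF and 1358 CPM per kilobase in APAP. Next came Gstm1 at 1221 CPM per kilobase in APAP_MSC, 616 CPM per kilobase in APAP_HDF and 759 CPM per kilobase in APAP, and then Mgst1 at 1045 CPM per kilobase in APAP_MSC, 529 in APAP_HDF and 539.9 in APAP. Gstm3 ranked 10 of the 50 members in APAP_MSC (105 CPM per kilobase) and 23 in APAP_HDF (17.6 CPM per kilobase). Sult2a8 ranked 27 in APAP_MSC (32.3 CPM per kilobase) and 38 in APAP_HDF (5.20 CPM per kilobase). Of the 14 members called over APAP, 12 share under 10% of their 50-base transcript windows with other genes, the exceptions being Gstm3 (28.8%) and Ugt2b5 (41.7%).

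Of the genes that supply the cosubstrates, those of sulfate held calls and those of UDP-glucuronic acid did not. Among all genes tested, 2.83% were called higher and 3.54% lower over APAP, and 4.9% and 3.99% over APAP_HDF. At these shares 0 calls is likely for any 4 genes, so it does not set the UDP-glucuronic acid supply apart. The sulfate list had 4 of 9 tested genes higher in APAP_MSC than in APAP, with a median log2 fold change of 0.17, and 0 lower, also at an unadjusted p under 0.05 and by DESeq2 and limma-voom. They were the sulfate transporter Slc26a1 (0.93 ± 0.12, adjusted p = 0.00455), sulfite oxidase Suox (0.73 ± 0.13, adjusted p = 0.016), and the sulfurtransferases Tst (0.80 ± 0.17, adjusted p = 0.0248) and Mpst (0.62 ± 0.12, adjusted p = 0.017), the last pair acting in sulfur amino acid and sulfide breakdown. Slc26a1 averaged 202 ± 27.1 CPM in APAP_MSC, 97.9 ± 8.31 CPM in APAP_HDF and 106 ± 11.2 CPM in APAP (SD, n = 3 each). The same 4 genes were higher in APAP_MSC than in APAP_HDF. At an unadjusted p under 0.05 in edgeR, Bpnt1 was also higher there (0.31 ± 0.11, adjusted p = 0.0941) and Slc26a2 was lower (-0.46 ± 0.19, adjusted p = 0.149). Bpnt1 was called higher in APAP_MSC than in APAP_HDF with the 6 libraries alone and without APAP library 1. Over APAP, 2 of the 4 passed without APAP_MSC library 1 and 1, Slc26a1, without APAP_MSC library 2. The call of Tst was lost in 5 of the 9 fits that left out a library (without any APAP_MSC library, APAP library 1 or APAP library 3). The supply of UDP-glucuronic acid showed no call in any comparison and no unadjusted p under 0.05 among its 4 genes (Ugp2, Ugdh, Slc35d1, Slc35b1), and DESeq2 and limma-voom called 0; log2 fold changes over APAP ran from -0.023 to 0.10.

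For glutathione synthesis and recycling, 2 of 9 were lower in APAP_MSC than in APAP and 0 were higher, with 2 higher at an unadjusted p under 0.05 (Cth and Cbs), 1 by DESeq2 and by edgeR with the 6 libraries alone or without APAP_HDF library 1 (Cbs), and 0 by limma-voom. Among all genes tested, 3.54% were called lower and 2.83% higher, and 10.2% were higher at an unadjusted p under 0.05. Over APAP_HDF, 3.99% of all genes were called lower and 4.9% higher. The lower pair were the cystine importer Slc7a11 (-1.10 ± 0.24, adjusted p = 0.0238) and glutathione reductase Gsr (-0.38 ± 0.10, adjusted p = 0.0467). Slc7a11 averaged 3.83 ± 1.33 CPM in APAP_MSC, 6.10 ± 0.294 CPM in APAP_HDF and 8.20 ± 1.79 CPM in APAP. Both calls over APAP were lost without APAP_MSC library 2, APAP_MSC library 3, APAP library 1 or APAP library 2, and Gsr also without APAP_MSC library 1, APAP_HDF library 2, APAP_HDF library 3 or APAP library 3 and with no filter on low counts. Gclc, the catalytic subunit of the rate-limiting step, was lower in APAP_MSC than in APAP_HDF (-0.71 ± 0.20, adjusted p = 0.0477), as was Gsr (-0.36 ± 0.10, adjusted p = 0.0478). Neither passed with DESeq2's size factors or with no filter, and Gclc also not with limma-voom or moderation without robust. Gsr was lost in each of the 9 fits that left out a library and Gclc in 6. At an unadjusted p under 0.05, Cth and Ggct were higher in APAP_MSC than in APAP_HDF and Slc7a11 was also lower. Cth (0.91 ± 0.29, adjusted p = 0.0848) was called higher by DESeq2 and by edgeR without APAP_HDF library 2 or APAP library 3. Of 5 genes of conjugate export, with a median of -0.012, 1 was called in APAP_MSC over APAP: Abcc1 was lower (-1.23 ± 0.31, adjusted p = 0.0427). It averaged 2.95 CPM in APAP_MSC and 6.94 CPM in APAP. The call was not made by limma-voom and was lost with no filter and without any 1 of 6 libraries (the 3 of APAP_MSC, APAP_HDF library 2, APAP library 1 and APAP library 2). Abcc2, the exporter with the highest CPM, gave -0.012 ± 0.19 over APAP (adjusted p = 0.983), and Abcc4 gave 0.22 ± 0.43 (adjusted p = 0.817). Abcc3, the sinusoidal exporter of glucuronides, gave -0.44 ± 0.14 (adjusted p = 0.084), and DESeq2 called it. Abcg2, an exporter of sulfate conjugates, was higher in APAP_MSC than in APAP_HDF (0.44 ± 0.12, adjusted p = 0.0459), a call lost without any 1 of the 6 libraries compared.

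A list of 14 other conjugation genes, which also held the epoxide hydrolases Ephx1 and Ephx2, had 5 higher in APAP_MSC than in APAP, with a median of 0.29. Among all genes tested, 2.83% were called higher over APAP and 4.9% over APAP_HDF. At an unadjusted p under 0.05 and by DESeq2 6 of the list were higher over APAP, with Ephx2 added. By limma-voom 4 were, without Gstz1. In each of these counts 0 were lower. Nat8, which acetylates cysteine conjugates to mercapturic acids, gave 1.21 ± 0.18 (adjusted p = 0.00732), and Acsm1, which activates benzoic and medium-chain acids for glycine conjugation, 1.01 ± 0.15 (adjusted p = 0.00565). The glycine transferase Glyat (0.71 ± 0.13, adjusted p = 0.017), Ephx1 (0.63 ± 0.13, adjusted p = 0.0216) and the zeta class Gstz1 (0.54 ± 0.14, adjusted p = 0.0498) were the others. Only Nat8 and Acsm1 kept the call without APAP_MSC library 2, and 3 genes were called without APAP_MSC library 1 and without APAP_MSC library 3. The call of Gstz1 was lost with DESeq2's size factors, with limma-voom, with the legacy dispersion and without any 1 of 7 libraries (all but APAP_HDF libraries 1 and 3), and that of Ephx1 without any APAP_MSC library, APAP library 2 or APAP library 3. Over APAP_HDF the same 5 genes and Baat, which conjugates bile acids with taurine or glycine (0.64 ± 0.14, adjusted p = 0.0163), were higher, and 3 of these 6 passed without APAP_MSC library 2. The deconjugating enzymes had 0 of 4 called over APAP by edgeR, DESeq2 and limma-voom, with 0 at an unadjusted p under 0.05. A list of 4 genes is too short for this to set it apart from all genes. Over APAP_HDF, the sulfatase Arsb was higher (0.64 ± 0.17, adjusted p = 0.0392), which limma-voom did not call and which was lost without any 1 of 7 libraries (all but APAP libraries 1 and 3). In APAP_HDF over APAP, 0 genes of any of these lists were called by edgeR, DESeq2 or limma-voom, where edgeR called 0% of all genes. An unadjusted p under 0.05 was found for 5 (Sumf1, Abcg2, Abcc3, Baat and Ahr). At that p 3.65% of all genes were higher and 5.14% lower, so the 5 are close to the share of all genes.

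**Figure D5:**
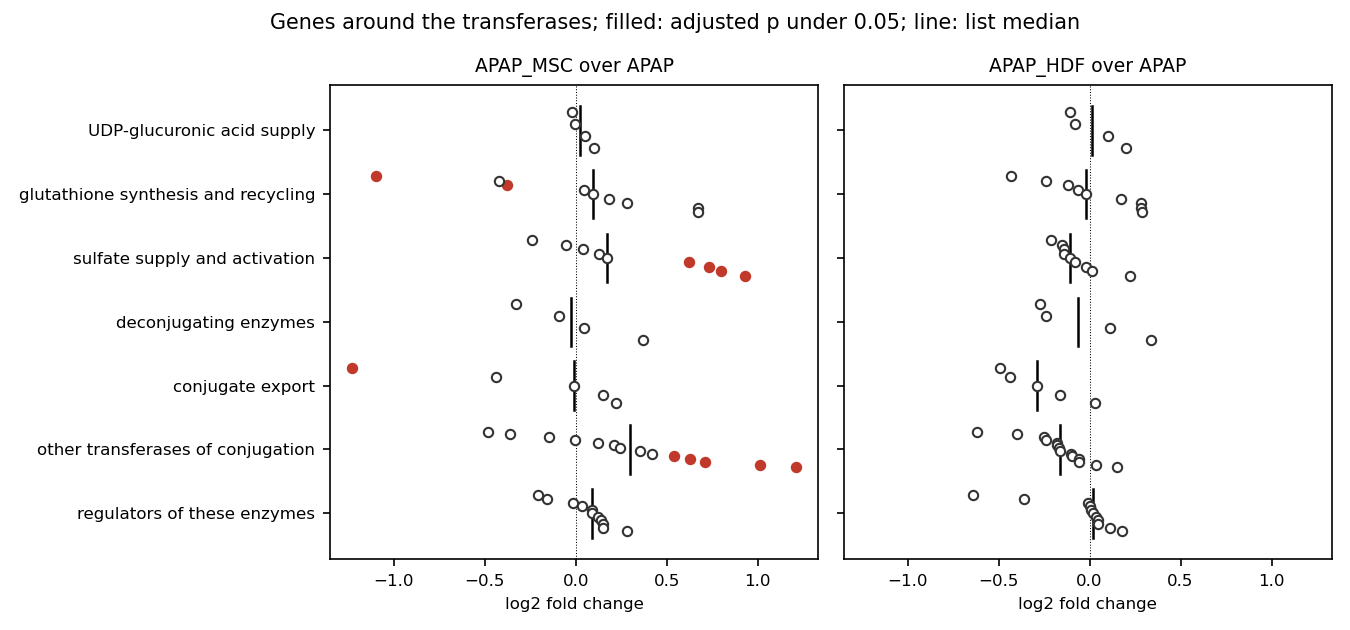
Log2 fold changes (x axis) of the genes around the transferases by list (y axis), for APAP_MSC over APAP at left and APAP_HDF over APAP at right; red filled points passed an adjusted p under 0.05 and black lines mark list medians. At left the 4 sulfate genes and 5 other conjugation genes lie above 0, and Slc7a11, Gsr and Abcc1 below it; at right there is no red point.

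Transcription factors known to control these enzymes were not called. Of 11 regulators, 0 passed in the 3 comparisons by edgeR, DESeq2 or limma-voom. In either direction, edgeR called 6.38% of all genes for APAP_MSC over APAP, 0% for APAP_HDF over APAP and 8.89% for APAP_MSC over APAP_HDF. At these shares 0 of 11 does not set the regulators apart from other genes. At an unadjusted p under 0.05 there was 1 for APAP_MSC over APAP: Nfe2l2, which binds the antioxidant response element (0.28 ± 0.12, adjusted p = 0.205). At that p 10.2% of all genes were higher and 12.7% lower. In APAP_MSC over APAP_HDF there were 2, where 12.7% of all genes were higher and 13% lower. They were Ahr, which binds the xenobiotic response element (0.48 ± 0.20, adjusted p = 0.154), and Nr1i2, the xenobiotic receptor PXR (0.45 ± 0.19, adjusted p = 0.171). Over APAP, Ahr gave -0.16 ± 0.20 in APAP_MSC and -0.64 ± 0.20 in APAP_HDF, and Nr1i2 gave 0.090 ± 0.19 and -0.36 ± 0.19, none past the test. Ahr passed for APAP_MSC over APAP_HDF without APAP library 1 and with the 6 libraries alone. RNA levels do not report the activity of these proteins.

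Of the 50 members, 44 had a RefSeq promoter window of 300 bases. Searched only in the spelling TGACNNNGC, on either strand, the antioxidant response element was found in 4 of 44 members (9.09%: Gsta3, Gstm5, Gstm7 and Mgst1). That spelling was in 14% of 27025 genes. Other spellings of the element were not searched, so these shares cannot show which promoters lack it. The core of the xenobiotic response element, GCGTG, was found in 11 of 44 (25%) and in 35.2% of genes, and in Gstm5 a copy overlaps the antioxidant match. A direct repeat bound by the receptors PXR and CAR was searched only with its repeated parts in a fixed spelling. That spelling was in 0 of 44 members and in 0.0148% of genes. It is so rare among all genes that 44 members could hardly hold it. The 0 therefore cannot show whether sites for these receptors are absent, and other spellings and spacings were not searched. These windows reach 250 bases upstream, and a match or its absence is a description of letters there.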

How the data were processed

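Per the file headers and values, the authors deposited raw read counts per gene as whole numbers, the values used here, and a table of normalized values that was not used. The submitters' processing notes name the tools HISAT2, Subread and DESeq2 and the builds mm39 and GRCm39, with no tool versions. Whether strand or multi-mapping reads were counted is not given in the sources used here. Column headers name the group but no replicate.

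Genes were kept by filterByExpr, which left 17582, and TMM-scaled counts were fitted with edgeR 4.0.16 in R 4.3.3 (glmQLFit, robust, group as the term, all 9 libraries). Calls are Benjamini-Hochberg adjusted p under 0.05 over all genes, two-sided. Levels are CPM of TMM-scaled library sizes, and log2 fold changes carry the fit's SE. The steps were tested on simulated data. Alternatives were DESeq2 1.42.0, limma-voom (limma 3.58.1), other scaling, filters and samples, and each library left out. The depth of 53267231 to 63175573 counts makes 3 counts equal to 0.0453 to 0.0567 CPM, for counting error only.

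Members and lists were chosen with earlier results of these data known. Named genes are members past the test, the 6 smallest p per comparison, members with a known role in APAP or electrophile conjugation, the 3 most abundant, and list genes past the test with up to 2 more by p. Members named beyond this complete a class, and other list genes are named for an unadjusted p under 0.05 or to describe their list. Promoters are RefSeq (GRCm38.p6). Shared 50-base windows and transcript lengths come from GENCODE M21 transcripts, a description added after the data were seen, in place of a planned comparison of protein sequences. Of the lists, 2 genes and 1 motif are not reported here. No coordinate was converted between builds.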

Additional observations from a re-analysis of the deposited data

How the results depend on the processing

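No paired analysis was possible because the columns carry the group but no replicate number. The count of 14 members for APAP_MSC over APAP was 22 in the DESeq2 Wald test and 12 to 18 with DESeq2 size factors, no filter, limma-voom, 6 libraries, moderation without robust or the legacy quasi-likelihood dispersion, the last chosen after the data were seen. It ran from 3 (without APAP_MSC library 2) to 20 (without APAP_HDF library 1) over the 9 fits that left out a library. The share of all genes called was 0.536% and 9.73% in these fits. For APAP_HDF over APAP the count of 0 was 1 in DESeq2, ran from 0 to 1 with a library left out (1 without APAP library 3, Papss2), and was 0 in the other alternatives. For APAP_MSC over APAP_HDF the count of 21 was 21 to 25 in the other alternatives. It ran from 11 (without APAP_MSC library 2, with 1.99% of all genes called) to 23 (without APAP library 3, with 9.95% called). The median of the members over these left-out fits was 0.42 to 0.62 for APAP_MSC over APAP, -0.32 to -0.04 for APAP_HDF over APAP and 0.56 to 0.72 for APAP_MSC over APAP_HDF. Of 1583 comparisons of a member named by the stated rule with its value under an alternative, 1493 kept the side of the threshold, 70 lost it, 20 gained it and 0 of the called values reversed; over all 50 members 70 were lost and 41 gained. Subfamily means moved by less than 1 SD in 120 of 120, a mark that could hardly be missed. The SD is that of the same 3 libraries, and leaving out 1 of them cannot by itself move their mean that far. This count is therefore no measure of stability. DESeq2's scaling moved no member by over 0.00968 on the log2 scale and turned the sign of 2 (Gsta1 and Gsto1, APAP_MSC over APAP_HDF), both near 0. The causes of these differences were not tested. With 3 libraries a group the precision is set by the spread between libraries, and the fits with a library left out have 2 in that group.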
